A study of Mus musculus with 6 samples.

Results

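The control lung of mouse embryos at embryonic day 18 was described from 3 RNA-seq libraries, each made from the whole lung. They are 3 of the 6 libraries of a study of Gata4, which encodes a transcription factor with zinc fingers that acts in heart and other mesoderm. The other 3 libraries, from lungs that lack Gata4 in the lateral plate mesoderm, were not used. The controls are Prx1Cre; Gata4 F/+ embryos, which carry the Prx1Cre transgene, 1 floxed Gata4 allele and 1 intact allele. All 3 share the transgene and the floxed allele, so a wild-type lung is not among them, and Prx1Cre acts in the lateral plate mesoderm, from which the connective tissue of the diaphragm comes. They came from matings of mice with both Gata4 alleles floxed, Gata4(fl/fl), to mice with 1 deleted allele and the transgene, Gata4(delta/+);Prx1Cre, and the submitters state that control lungs develop normally. RNA was purified from all lung cells with a column kit and made into libraries with a stranded mRNA kit. The labels call the libraries biological replicates, and nothing says whether the embryos were littermates.

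The counts were scaled to CPM, the reads of a gene per 1000000 reads of its library. Genes were kept at 1 CPM or more in each of the 3 controls, which left 14672 of the 55335 genes in the table. Of the genes left out, 27624 had no read in any control, 11876 had reads but stayed under 1 CPM in each control, and 1163 reached 1 CPM in some controls and not in others. The kept genes were 13331 protein-coding genes, 540 pseudogenes, 216 lincRNAs, 193 antisense genes and 392 of other or no type, and they held at least 99.6% of the reads of each control. Cpb1, Rhbdl1 and Slc26a7 were just inside the limit, with 1.00 CPM in their lowest control. Cysltr2, Zfp879 and 4930404N11Rik were just outside it, with 0.986 CPM in their lowest control.

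The mouse lung at this age is in its saccular stage, shortly before birth. Its distal airspaces are widening, their walls are thinning, and epithelial progenitors are becoming flat alveolar type 1 cells, across which gas is exchanged, and cuboidal alveolar type 2 cells, which make surfactant. Around them lie a growing capillary bed and a mesenchyme that lays down elastin and collagen, while the airways are lined by secretory and ciliated cells.

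Total counts were 21295440 in control 1, 20851989 in control 2 and 30848948 in control 3, so 1 CPM stood for 21.3, 20.9 and 30.8 reads. A gene at 1 CPM therefore had a counting error of 18.0% to 21.9% of its value. The column labels carry a further number, whose meaning is not given: 4229 for controls 1 and 2 and 4503 for control 3. Xist, the RNA of the inactive X chromosome, had 0.751, 1046 and 0.259 CPM in controls 1, 2 and 3. The Y-linked gene Ddx3y had 128 and 127 CPM in controls 1 and 3 and no read in control 2, where a count of 0 allows up to 0.144 CPM. By these genes control 2 was female and controls 1 and 3 were male. Gata4 itself (ENSMUSG00000021944, chromosome 14, 63198922 to 63271692) was low, with 3.94, 3.02 and 2.92 CPM. These embryos carry Prx1Cre and 1 floxed Gata4 allele, so the Gata4 level of a wild-type lung was not measured.

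The 6 marker genes chosen to check the tissue were present in each control. Sftpc, the gene of surfactant protein C and a marker of alveolar type 2 cells, had 6569.7, 6034 and 9629 CPM in controls 1, 2 and 3. Ager, which marks alveolar type 1 cells, had 1107, 1102 and 1350.4 CPM, and Pecam1, an adhesion molecule of endothelium, had 636, 645 and 650.3 CPM. Pecam1 was the steadiest of the 6, and Ager was somewhat higher in control 3. Scgb1a1, the secretoglobin of airway club cells, had 139.8, 181 and 520.1 CPM, and Foxj1, the master regulator of motile cilia, had 59.4, 51.0 and 71.8 CPM. Acta2, the actin of smooth muscle, had 236, 244 and 156 CPM. Scgb1a1 was thus far higher in control 3 than in the other controls, while Acta2 was lowest there. In whole lungs, fewer cells of a type and less RNA per cell cannot be told apart.

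No single gene dominated the libraries. The 20 genes with most reads held 7.32% ± 0.292% of all reads (SD, n = 3), the first 100 held 16.0% ± 0.336%, and the first 1000 held 45.6% ± 0.231%. Protein-coding genes took 97.6% ± 0.139% of reads and the mitochondrial chromosome 1.39% ± 0.00912%. The gene with most reads was Eln, which encodes elastin, the core protein of elastic fibres (ENSMUSG00000029675, chromosome 5, 134702593 to 134747323), with 8613, 7997 and 8484 CPM. The translation factor gene Eef1a1 followed with 7609.8 ± 476 CPM (SD, n = 3), then Sftpc with 7411 ± 1939.7, the mitochondrial COX1 with 5868 ± 133 and the adult beta-globin Hbb-b1 with 5023 ± 439. Matrix genes were frequent among the 20. They included Fn1, the gene of fibronectin, with 3093 ± 600.3 CPM, the microfibril gene Mfap4 with 2524 ± 163, Col3a1 with 2052 ± 170.1, the basement membrane collagen Col4a1 with 2034 ± 448, and Sparc, a collagen-binding matrix protein, with 2029.7 ± 81.0. Epithelial genes among the 20 were Sftpc, the phosphate transporter gene Slc34a2 with 2194 ± 709 CPM, and Cav1, the caveolin gene of type 1 cells and endothelium, with 1818 ± 154. Scd2, a fatty acid desaturase, had 2562 ± 198 CPM.

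Reads grow with transcript length, so levels were compared between genes as CPM per kilobase of merged exons. On that scale Sftpc (ENSMUSG00000022097, chromosome 14, 70520949 to 70524081) was the highest of the 14663 kept genes with a length, at 7167 ± 1876 CPM per kilobase (SD, n = 3). Hbb-b1 came next at 6541 ± 572, then COX1 at 3798 ± 86.2, the alpha-globin Hba-a1 at 3207 ± 898 and Eef1a1 at 3052 ± 191. The SDs of Sftpc and Hbb-b1 overlap, and control 2 had more Hbb-b1 than Sftpc per kilobase. Mfap4 at 1313 ± 84.6 and Eln at 1033 ± 40.1 were the highest matrix genes, and Lyz1, a lysozyme gene, at 892 ± 457 and Sftpb, surfactant protein B, at 859.8 ± 257 joined Sftpc as secreted products. Both Lyz1 and Sftpb were highest in control 3. Ribosomal protein genes filled 6 of the 25 highest places. Gm23935, at 2810.4 CPM per kilobase, and Gm10736, at 985, are models of 57 and 78 bases, and Gm42418, at 2061, lies at a locus of ribosomal RNA sequence. Their levels are therefore uncertain. The median over all kept genes was 6.49 CPM per kilobase.

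**Figure D1:**
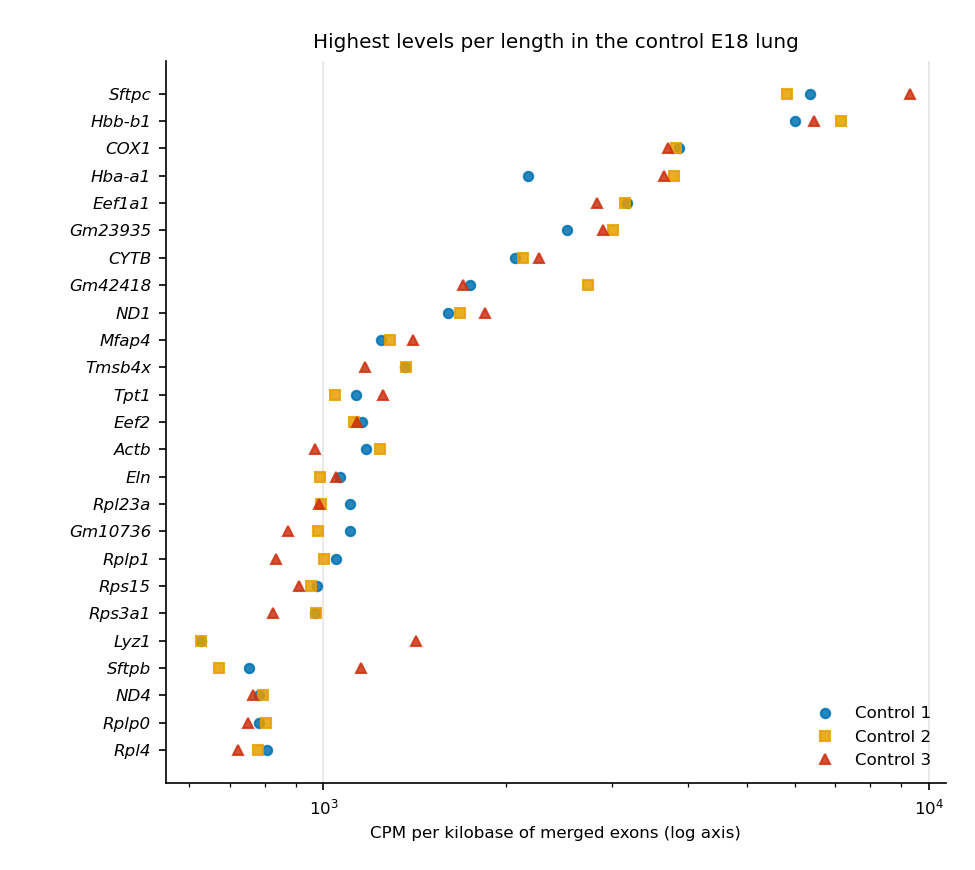
CPM per kilobase of merged exons (log axis) of the 25 kept genes with the highest mean, in controls 1, 2 and 3, with genes in order of their mean. Sftpc heads the plot with 7167 CPM per kilobase on average, and the points of control 3 lie apart to the right for Sftpc, Lyz1 and Sftpb.

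The surfactant-making programme was strong in each control. All 20 alveolar type 2 markers were kept, with a median of 112 CPM per kilobase, and together they took 1.78% ± 0.524% of reads. Beyond Sftpc and Sftpb, Sftpa1, a surfactant collectin, had 501, 521 and 1339 CPM in controls 1, 2 and 3, and Abca3, the lipid pump of lamellar bodies, had 646, 625 and 823 CPM. Lamp3, a lamellar body protein, had 583, 528 and 761 CPM, and Lpcat1, which makes the main surfactant phospholipid, had 707, 671 and 778. Other members were far lower per length, with the collectin gene Sftpd at 60.3 ± 59.1, the calcium-binding S100g at 45.9 ± 29.8 and the chitinase-like Chil1 at 19.8 ± 23.9 CPM per kilobase. The SDs of these 3 genes were wide beside their means. All 18 alveolar type 1 markers were kept as well, with a median of 89.6 CPM per kilobase and 1.02% ± 0.0693% of reads. Hopx, a homeodomain cofactor, was at 293 ± 19.3 CPM per kilobase, Aqp5, a water channel, at 35.8 ± 2.36 and Emp2, a membrane protein of type 1 cells, at 124 ± 14.0. Of 11 distal progenitor genes found 10 were kept, with a median of 7.80 CPM per kilobase, close to that of all kept genes. Id2, an inhibitor of differentiation, was the highest at 51.5 ± 3.20, while Sox9, the factor of the branching tips, was at 3.65 ± 0.421 and Etv4, a target of FGF signalling, at 1.55 ± 0.356. The 16 pan-epithelial genes had a median of 29.7 CPM per kilobase.

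Airway genes had lower medians per length. The 13 club and secretory markers were kept with a median of 21.9 CPM per kilobase, led by Scgb3a2 at 678 ± 188, Scgb1a1 at 589 ± 439 and Cbr2, a carbonyl reductase, at 461 ± 159. The airway detoxifying enzyme gene Cyp2f2 had 161, 185 and 296 CPM in controls 1, 2 and 3. The 17 ciliated cell markers found were kept with a median of 6.75 CPM per kilobase, led by Tppp3 at 53.0 ± 10.5, and Hydin, a large axonemal protein, had 17.7, 14.0 and 27.4 CPM. Of 6 basal cell markers only Krt15 was kept. Trp63, which specifies basal cells, had 0.751, 0.767 and 0.681 CPM, and Krt5 had 0.0470, 0.288 and 0.292. Of 11 neuroendocrine markers found, 5 were kept. The neuropeptide gene Calca had 5.21, 4.84 and 3.47 CPM.

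Endothelial genes were uniformly present. The 18 pan-endothelial genes had a median of 40.0 CPM per kilobase, and their CPM summed to 4021, 4281 and 4858 in controls 1, 2 and 3. Cdh5, the cadherin of endothelial junctions, had 660.0, 671 and 844 CPM, and Kdr, the main VEGF receptor, had 486, 525 and 482. Genes of the aerocyte, the large thin capillary cell that faces type 1 cells, had a median of 39.5 CPM per kilobase. Ednrb, an endothelin receptor, had 166, 168 and 233 CPM, and Car4, a carbonic anhydrase that marks aerocytes, had 15.8, 16.0 and 58.5. Genes of the general capillary cell had a median of 19.6 CPM per kilobase, with Cd93 at 597, 646 and 555 CPM and the apelin receptor Aplnr at 161, 181 and 127. Of the 8 lymphatic markers, all kept, Lyve1 had 187, 188 and 248 CPM and Prox1, the factor that sets lymphatic identity, had 9.72, 7.72 and 10.7.

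Matrix genes were high in each control. The 17 elastic fibre genes took 1.41% ± 0.0354% of reads, the 22 genes of fibrillar collagens and their enzymes 1.10% ± 0.0652% and the 24 basement membrane genes 1.06% ± 0.0620%. Alveolar fibroblast genes had a median of 46.4 CPM per kilobase and included Tcf21, a factor of lung mesenchyme, at 371, 367 and 428 CPM in controls 1, 2 and 3, and Pdgfra, the receptor of myofibroblast precursors, at 349, 327 and 369. Npnt, the gene of nephronectin, had 876, 940.3 and 1014 CPM. The smooth muscle genes had a median of 14.0 CPM per kilobase, led by Acta2 at 96.5 ± 22.2, and the pericyte genes one of 40.5, where Pdgfrb had 214, 212 and 239 CPM. All 12 mesothelial genes were kept. Msln, the gene of mesothelin, had 356, 304 and 379.9 CPM and Wt1, the factor of the mesothelium, 6.20, 5.61 and 6.06. Of 12 airway cartilage genes only 5 were kept, and Col2a1 and Acan, the collagen and proteoglycan that define cartilage, stayed under 1 CPM in each control.

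Among blood and immune genes, adult globins were the highest and macrophage markers the most complete. The 17 erythroid genes found took 0.918% ± 0.0965% of reads, and the adult globins Hbb-b1 and Hba-a1 headed the list. The embryonic globin Hbb-y had 5.12, 10.6 and 1.39 CPM in controls 1, 2 and 3, and Alas2, which starts haem synthesis in red cells, had 196, 232 and 233. All 22 macrophage and monocyte markers were kept, with a median of 7.89 CPM per kilobase. Csf1r, the receptor for the macrophage growth factor, had 48.8, 39.7 and 49.0 CPM, and C1qa, a complement gene of tissue macrophages, had 25.2, 21.2 and 23.0. Neutrophil genes were sparse, with 9 of 14 kept, and S100a8, a protein of neutrophil cytoplasm, had 11.7, 8.01 and 18.2 CPM. Of 16 lymphocyte markers only Cd79b and Lck were kept, and the T cell gene Cd3e had 2, 0 and 1 reads.

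Genes of other tissues were kept in part. Heart muscle, which in the mouse also forms a sleeve around the pulmonary veins, was the most complete of these lists. Of 15 heart muscle genes 10 were kept, and their CPM summed to 537, 516 and 473 in controls 1, 2 and 3. The atrial myosin light chain Myl7 had 60.4, 66.1 and 43.3 CPM, Myh6, a heart myosin, had 142, 126 and 113, and Myl2, the ventricular light chain, had 0.329, 0.144 and 0.162. Of 13 liver genes only Alb, albumin, and Trf, transferrin, were kept. Of 12 genes of thymus, oesophagus and parathyroid only Ccl25 was kept, and Foxn1, Psmb11, Dntt, Gcm2 and Pth had no read in any control. Of 12 neuron genes only Stmn2 was kept, at 11.5, 14.9 and 23.4 CPM. Of 15 skeletal muscle genes 5 were kept, with Ckm, the muscle creatine kinase, at 23.2, 18.8 and 16.4 CPM, while Pax7 and Myod1, of muscle stem cells and myoblasts, had no read.

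**Figure D2:**
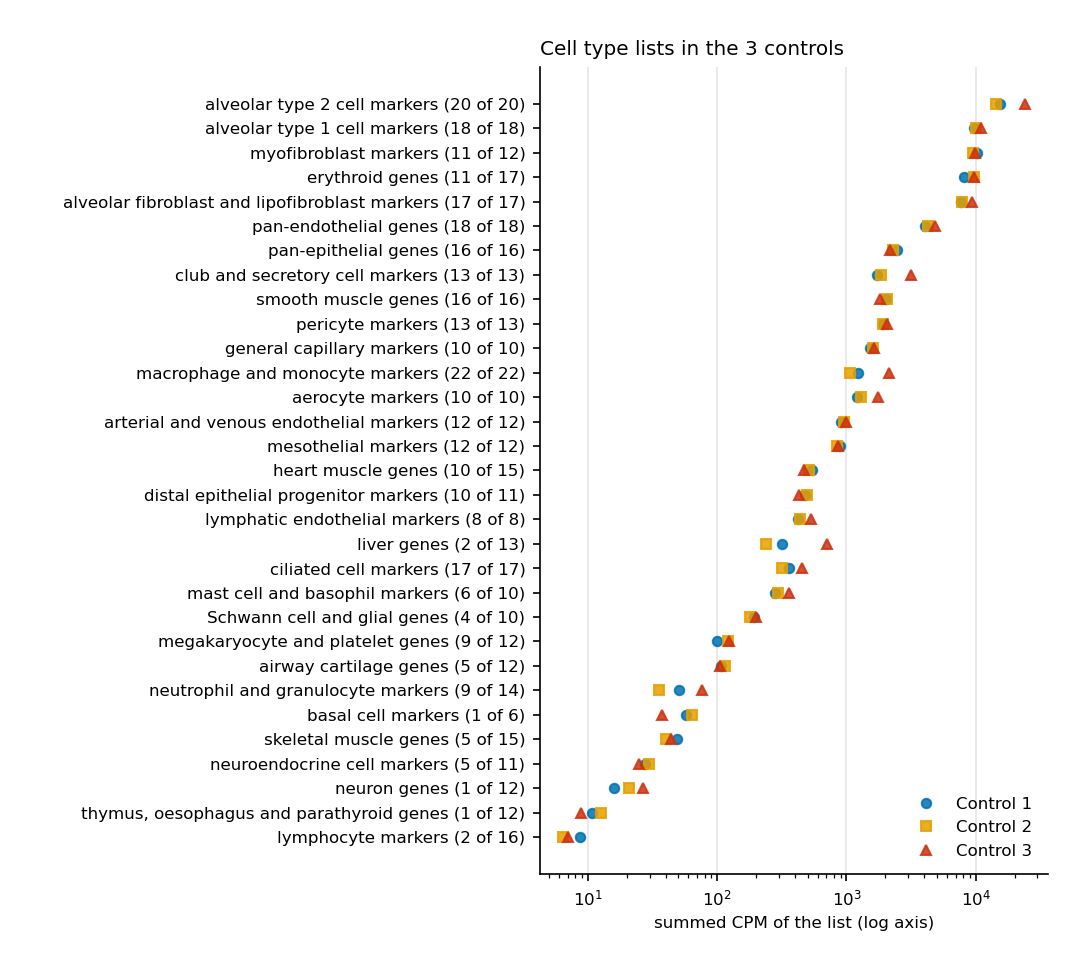
Summed CPM (log axis) of each cell type list in controls 1, 2 and 3, with the number of genes kept of those found in the table beside each name. A sum grows with the number and length of its genes, so points are to be compared along a row: the alveolar type 2 row is at 15333, 14321 and 23861 CPM in controls 1, 2 and 3, while the pan-endothelial row stays between 4021 and 4858 CPM.

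Genes of protein synthesis and respiration were high, while the medians of the cell division lists lay slightly above and below the 6.49 CPM per kilobase of all kept genes. The cytoplasmic ribosomal protein genes, 78 of 79 kept, took 4.19% ± 0.254% of reads at a median of 263 CPM per kilobase, and the 13 mitochondrially encoded genes 1.29% ± 0.0168%. The 32 mitosis genes, all kept, had a median of 8.10 CPM per kilobase, and the 32 DNA replication genes one of 4.08. Mki67, a protein of cycling cells, had 213, 233 and 110.1 CPM in controls 1, 2 and 3. Imprinted genes of fetal growth had a median of 37.1 CPM per kilobase. H19, a maternally expressed noncoding RNA, had 1889.6, 1452 and 1005 CPM, Mest, a paternally expressed gene, had 1751, 2060.3 and 1276, and Dlk1, a growth regulator, had 642, 592 and 919. Among genes of fluid movement, Slc12a2, the chloride loader of the secreting fetal lung, had 495, 448 and 393 CPM, and Scnn1a, a subunit of the sodium channel that clears fluid at birth, had 155, 159 and 253. Slc12a2 was lowest and Scnn1a highest in control 3.

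Transcription factor and signalling genes were close to each other across the controls when summed. The 32 lung transcription factors were all kept and summed to 3701, 3679.7 and 3797 CPM in controls 1, 2 and 3. Nkx2-1, which sets lung epithelial identity, had 296, 258 and 239 CPM, Foxf1, a target of Hedgehog signals in mesenchyme, had 167, 177 and 196, and Tbx4, a factor of lung mesenchyme, had 195, 202 and 201. The FGF genes summed to 1909, 1848 and 1908 CPM, with the ligand Fgf10 at 85.6, 77.9 and 79.6 and its receptor Fgfr2 at 401, 345 and 365. The Hedgehog genes summed to 1317, 1320.2 and 1241 CPM, with the ligand Shh at 63.8, 71.0 and 49.8 and its antagonist and target Hhip at 501, 479 and 441. The WNT genes summed to 1901, 1960.2 and 1791 CPM, with Wnt2 at 77.4, 85.9 and 71.3, and the Notch genes to 912, 935 and 964 CPM. Hes5, a Notch target, had no read in any control.

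Controls 1 and 2 were closer to each other than either was to control 3. The median gene differed 1.07-fold between controls 1 and 2, 1.13-fold between controls 3 and 1 and 1.15-fold between controls 3 and 2. A 2-fold difference separated controls 1 and 2 for 66 genes, controls 3 and 1 for 455, and controls 3 and 2 for 578. The biological coefficient of variation, edgeR's estimate of spread beyond counting error, was 15.0% over the 3 controls and 7.16% over controls 1 and 2 alone. No pair agreed within sampling noise, since the closest, controls 1 and 2, had a mean chi-square per gene of 7.55. That value alone does not show that they are separate embryos, but Xist and Ddx3y, given above, set control 2 apart from control 1 as female from male. Each library was counted as a sample of its own because the labels call the libraries biological replicates. The highest control exceeded the lowest at least 2-fold for 731 genes, 4.98% of those kept, and the median gene had a range of 1.20-fold. This share was 13.0% among genes with a mean from 1 to 5 CPM, 5.01% from 5 to 50 CPM and 1.02% above 50 CPM. Control 3 also had the largest library. With each library thinned to the smallest total 749 genes had a 2-fold range. Thinning evens out the number of reads only. Across groups of kept genes by exon length, the median log2 ratio of control 3 to the mean of the other controls ran from -0.06 to 0.01. Across groups by GC content of the longest transcript it ran from -0.06 to -0.001. Other differences between the libraries were not tested. Control 3 also differed in its label number, whose part in these differences cannot be told apart from that of control 3 itself. Without control 3, 72 genes had a 2-fold range, against 473 without control 2 and 582 without control 1.

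Genes were called apart in a control when they lay at least 2-fold above, or at least 2-fold below, both other controls. In control 3, 126 genes (0.859% of those kept) were above both others and 199 (1.36%) were below. In control 1, 9 genes (0.0613%) were above and 4 (0.0273%) below, and in control 2, 7 genes (0.0477%) were above and 23 (0.157%) below. Control 3 was the highest control for 36.6% of all kept genes and the lowest for 45.4%, and its median log2 ratio to the mean of the other controls was -0.03 over all kept genes. These are descriptions of 3 libraries of 1 group, and no test was made.

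**Figure D3:**
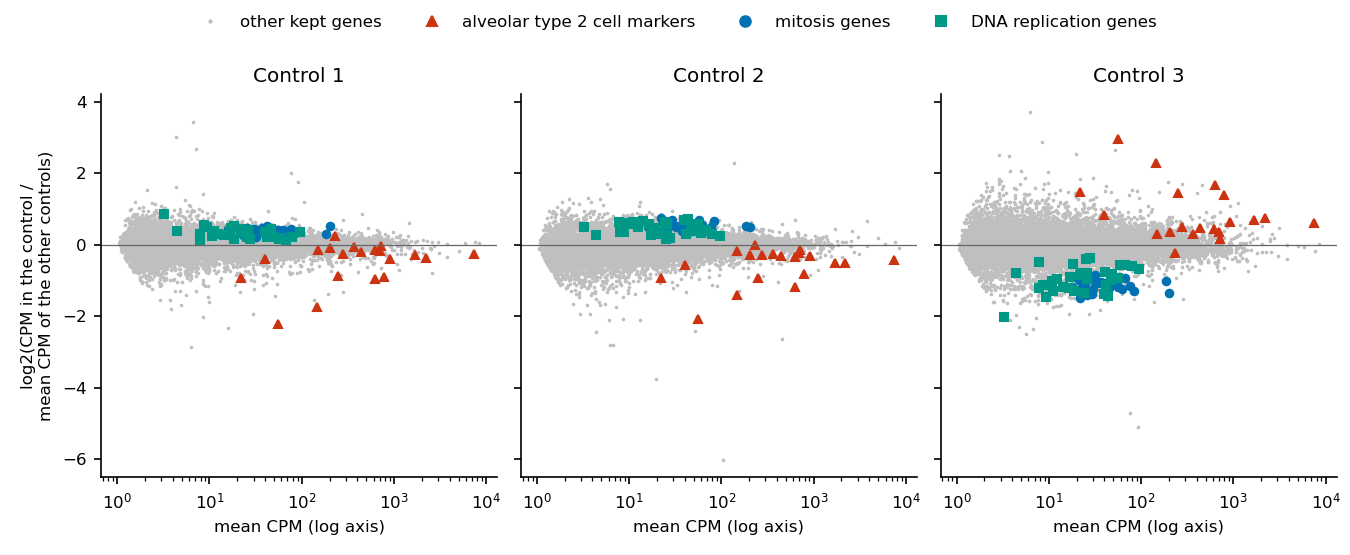
For each kept gene, the log2 ratio of its CPM in 1 control to its mean CPM in the other controls, against its mean CPM (log axis), with a panel for each control. Of the alveolar type 2 markers, 19 of 20 are highest in control 3, with Etv5 as the exception, while mitosis and DNA replication genes lie below 0 in control 3, at medians of -1.14 and -0.94.

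Genes of mitosis and DNA replication were lower in control 3 as a block. Only 2 of 16 replication-dependent histone genes were kept, H1f2 and H2bc4, so that list was hardly measured. Both were highest in control 3, as were 36.6% of all kept genes, at a median log2 ratio of 0.56. All 32 mitosis genes were lowest there, and 25 of them were at least 2-fold below both other controls (1.36% of all kept genes were). Their median log2 ratio was -1.14 beside -0.03 for all kept genes. Their CPM summed to 866 CPM in control 3, against 1876 and 1968 CPM in controls 1 and 2. Top2a, which untangles chromosomes, had 99.7 CPM in control 3, against 254 and 251 CPM in controls 1 and 2, and Ccnb1, the cyclin that starts mitosis, had 22.0 CPM, against 51.6 and 54.1 CPM. Aurkb, a kinase of chromosome attachment, had 9.98 CPM, against 25.9 and 30.0 CPM, the widest range of the list. All 32 DNA replication genes were lowest in control 3 too, 11 of them at least 2-fold below (beside the same 1.36%), with a median of -0.94. Orc1, a subunit that marks replication origins, had 1.07 CPM in control 3, against 4.65 and 4.03 CPM in controls 1 and 2, and Uhrf1, which links DNA replication to its methylation, had 20.2 CPM, against 50.7 and 59.0 CPM. Pcna, the sliding clamp, differed less, with 59.5 CPM, against 87.5 and 91.0 CPM. Outside these lists, the genes furthest below both other controls included Pclaf, a partner of the clamp, with 13.4 CPM in control 3, against 46.2 and 48.2 CPM in controls 1 and 2, and Ercc6l, a mitotic helicase, with 5.51 CPM, against 17.9 and 17.4 CPM. Control 3 thus lay below both others for each gene of the 2 lists, where it was the lowest for 45.4% of all kept genes. Control 2 was the highest for 24 of the mitosis and 21 of the replication genes, beside 34.3% of all kept genes. With control 3 lowest for each gene of these lists, only control 1 or control 2 could be the highest.

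The promoters of these genes show which sequence elements the lists share. Late cell-cycle genes are known to carry a homology region, here searched as TTTGAA, and CCAAT boxes, which NF-Y binds. RefSeq promoters (GRCm38.p6), from 250 bases before to 50 after the start, matched 29 promoters of 27 of the 32 mitosis genes. On either strand, TTTGAA was in 23 of the 29 (79.3%), beside 17.9% of all 32851 promoters, and CCAAT was in 22 (75.9%), beside 37.4%. Among promoters of kept genes alone, the shares were 12.1% for TTTGAA and 37.0% for CCAAT. Both were in 65.5% of the mitosis promoters, beside 6.95% of all promoters and 4.73% of those of kept genes. Of 32 promoters of replication genes, 4 (12.5%) had TTTGAA and 22 (68.8%) had CCAAT. The 3 mitosis genes with the widest ranges after Aurkb, which has no entry, are printed to show these elements, with matches in capitals and the other bases in lower case; ATTGG and TTCAAA are the matches on the opposite strand. Bub1, a kinase of the spindle checkpoint, is at chr2:127831810-127832109 on the minus strand and holds CCAAT boxes 68 and 42 bases before the start and no TTTGAA. Hmmr, a microtubule-binding protein, is at chr11:40733388-40733687 on the minus strand, with TTTGAA 9 bases past the start and 5 CCAAT boxes. Kif15, a spindle motor, is at chr9:122950831-122951130 on the plus strand, with TTTGAA at 234 and 19 bases before the start and no CCAAT.
Bub1: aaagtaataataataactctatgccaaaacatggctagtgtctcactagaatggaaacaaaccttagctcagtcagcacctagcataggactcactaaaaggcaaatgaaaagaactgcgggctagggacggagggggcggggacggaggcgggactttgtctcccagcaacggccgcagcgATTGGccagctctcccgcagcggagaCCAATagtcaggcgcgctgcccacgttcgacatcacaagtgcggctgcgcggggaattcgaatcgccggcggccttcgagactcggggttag
Hmmr: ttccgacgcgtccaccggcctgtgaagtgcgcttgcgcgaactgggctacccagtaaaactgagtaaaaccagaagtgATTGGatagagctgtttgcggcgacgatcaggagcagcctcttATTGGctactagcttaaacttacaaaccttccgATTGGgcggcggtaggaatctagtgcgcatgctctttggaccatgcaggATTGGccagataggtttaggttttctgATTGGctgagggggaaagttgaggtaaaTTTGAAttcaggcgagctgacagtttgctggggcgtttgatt
Kif15: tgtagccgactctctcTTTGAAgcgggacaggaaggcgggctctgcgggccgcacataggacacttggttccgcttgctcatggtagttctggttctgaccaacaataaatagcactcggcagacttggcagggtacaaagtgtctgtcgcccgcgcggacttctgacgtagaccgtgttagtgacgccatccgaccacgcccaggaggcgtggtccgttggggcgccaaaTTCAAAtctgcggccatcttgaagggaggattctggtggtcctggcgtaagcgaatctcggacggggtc
The genes behind them had similar values: Bub1 12.2 CPM in control 3, against 31.4 and 33.4 CPM in controls 1 and 2, Hmmr 14.0 CPM, against 35.5 and 37.9 CPM, and Kif15 14.7 CPM, against 34.1 and 39.3 CPM. A match is a stretch of letters and does not show that a factor binds there. Among the 199 genes below both others in control 3, which hold 25 of the mitosis and 11 of the replication genes, 41.6% of 154 promoters had TTTGAA and 62.3% had CCAAT.

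Markers of alveolar type 2 cells ran the other way. Of the 20, 19 were highest in control 3, where 36.6% of all kept genes were, and the exception, Etv5, a factor of the FGF pathway, was the lowest. Their median log2 ratio in control 3 was 0.63, and their CPM summed to 23861 CPM in control 3, against 15333 and 14321 CPM in controls 1 and 2. The widest ranges were those of Chil1 and Sftpd. Chil1, a chitinase-like protein, had 133 CPM in control 3, against 16.2 and 17.5 CPM in controls 1 and 2, and Sftpd, the surfactant collectin of host defence, had 311 CPM, against 57.3 and 69.4 CPM. S100g, a calcium-binding protein, had 38.6 CPM, against 13.8 and 13.7 CPM, and Hc, complement component C5, had 431 CPM, against 159 and 155 CPM. Lyz2, a lysozyme shared with macrophages, had 1165 CPM, against 384 and 339 CPM. Abca3 and Lpcat1 differed less, by log2 ratios of 0.37 and 0.18. The 19 surfactant lipid and lamellar body genes had a median log2 ratio of only 0.09 in control 3, with 11 highest there, among them Scd1, a fatty acid desaturase, at 1041 CPM, against 516 and 591 CPM. Pan-epithelial genes did not share this pattern: 10 of 16 were lowest in control 3 (45.4% of all kept genes were), at a median of -0.12. In control 1, 11 of the 16 were highest (29.1% of all kept genes were). Epcam, an epithelial adhesion molecule, was among them with 115 CPM in control 1, against 96.6 and 93.3 CPM in controls 2 and 3. Type 1 markers had a median of 0.18, and 12 of 18 were highest in control 3. Rtkn2, a type 1 cell gene, stood alone among them as apart, with 363 CPM in control 3, against 93.7 and 123 CPM in controls 1 and 2.

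The promoter of Chil1, the list member with the widest range, is printed for comparison with the cell-cycle promoters. It lies at chr1:134181906-134182205 on the plus strand, holds CCAAT 226 and 43 bases before the start, shown in capitals, and has no TTTGAA.
Chil1: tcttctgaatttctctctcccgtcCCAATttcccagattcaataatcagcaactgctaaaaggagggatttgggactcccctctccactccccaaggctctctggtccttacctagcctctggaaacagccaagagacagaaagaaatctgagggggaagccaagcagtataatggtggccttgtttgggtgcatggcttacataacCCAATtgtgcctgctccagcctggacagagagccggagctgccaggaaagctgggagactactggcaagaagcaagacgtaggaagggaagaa
TATAAA was in 6 of 17 promoters (35.3%) of 15 type 2 markers, beside 13.6% of all promoters and 7.40% of those of kept genes. It was in 1 of the 29 mitosis promoters. Of the 17 type 2 promoters, 6 (35.3%) had CCAAT, beside 37.4% of all promoters and 37.0% of those of kept genes. TTTGAA was in 3 of the 17 (17.6%), beside 17.9% and 12.1%. Sftpc, Sftpd and Scgb1a1 had no entry.

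Several airway, capillary and immune lists were higher in control 3 too, and others were not. Counts of genes highest in control 3 stand beside 36.6% of all kept genes. Of 13 club and secretory markers 11 were highest there and 2 apart: Scgb1a1, given above, and Retnla, a resistin-like secreted protein, with 126 CPM in control 3, against 48.7 and 46.9 CPM in controls 1 and 2. The club list had a median log2 ratio of 0.65, and the ciliated list one of 0.38, with 13 of 17 highest and none apart. Of 10 aerocyte markers 9 were highest in control 3, at a median of 0.52, and Car4, Chst1 and Cyp4b1 were apart. Car4, a marker of mature aerocytes, had 58.5 CPM in control 3, against 15.8 and 16.0 CPM in controls 1 and 2, and Cyp4b1, a cytochrome of the lung, had 86.4 CPM, against 37.2 and 37.0 CPM. Apln, the ligand found in the same cells, was the exception, with 38.3 CPM, against 39.0 and 46.0 CPM. The general capillary list had a median of 0.28, with 7 of 10 highest in control 3, although Cd93 and Aplnr, given above, were lowest there. Pan-endothelial genes had a median of 0.14. Neutrophil markers had the highest median of the lists with at least 5 kept genes, 0.83, with 8 of 9 highest in control 3, although their sum was only 76.7 CPM in control 3, against 50.5 and 35.8 CPM in controls 1 and 2. Lists that went the other way or stayed level were those of lymphocytes, at -0.18 with 2 genes, and interferon response, at 0.01. Neuroendocrine markers had a median of -0.24, which changed sign over the settings, from -0.37 to 0.18. Of their 5 kept genes 3 were lowest in control 3, beside 45.4% of all kept genes. The basal gene Krt15 had 35.6 CPM, against 55.0 and 61.1 CPM. Glucocorticoid response genes had a median of 0.40, with 14 of 17 highest in control 3. Zbtb16, an induced repressor, had 138 CPM in control 3, against 86.1 and 78.4 CPM in controls 1 and 2, and Nr3c1, the receptor itself, had 294 CPM, against 302 and 289 CPM.

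Mesenchymal genes differed among themselves. Inmt, a methyltransferase of lung fibroblasts, had 118 CPM in control 3, against 24.1 and 13.3 CPM in controls 1 and 2, while the alveolar fibroblast list had a median log2 ratio of 0.13. Fbn2, the fibrillin of fetal microfibrils, had 126 CPM, against 378 and 344 CPM, and Fbn1, the fibrillin that persists in adults, had 586 CPM, against 654 and 655 CPM. Gdf10, a secreted relative of the BMPs, had 9.50 CPM in control 3, against 36.7 and 35.3 CPM in controls 1 and 2, and P4ha3, a collagen prolyl hydroxylase, had 5.71 CPM, against 19.8 and 23.9 CPM. Of 21 kept fibrillar collagen genes 15 were lowest in control 3 (45.4% of all kept genes were), at a median of -0.21, and Col1a1 had 525 CPM, against 662 and 659.6 CPM. Smooth muscle genes were lowest there for 11 of 16, beside the same 45.4%, at -0.28. Among type IV collagens of the basement membrane, Col4a1 had 2548 CPM in control 3, against 1826 and 1728 CPM in controls 1 and 2, and Col4a3, a chain made by type 1 cells, had 196 CPM, against 92.8 and 103 CPM. Tgfb2, a growth factor of mesenchyme and epithelium, had 78.3 CPM, against 145 and 139.7 CPM.

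Smaller differences ran through housekeeping lists, where counts of genes lowest in control 3 stand beside 45.4% of all kept genes. Of 78 kept ribosomal protein genes 68 were lowest in control 3, with a median of -0.16, and 24 of 30 nuclear respiratory chain genes were lowest there, with -0.10. Heat shock and unfolded protein genes had a median of -0.41, with 16 of 20 lowest in control 3, and Hspa5, the main chaperone of the endoplasmic reticulum, had 504 CPM in control 3, against 707 and 779.8 CPM in controls 1 and 2. Imprinted genes had -0.30, with 16 of 23 lowest, among them H19, given above, and Nnat, a paternally expressed membrane protein, with 60.0 CPM, against 123 and 136 CPM. The lung transcription factors were level at 0.03, and the Hedgehog and FGF lists at 0.01 and -0.03. Erythroid genes had a median of 0.12, which ranged from -0.12 to 0.23 over the other settings, while the embryonic globin Hbb-y had 1.39 CPM in control 3, against 5.12 and 10.6 CPM in controls 1 and 2. Among further genes named by size, Lrp2, an endocytic receptor of epithelia, had 41.4 CPM in control 3, against 10.8 and 12.3 CPM in controls 1 and 2, and Sgpp2, a phosphatase of sphingosine phosphate, had 19.6 CPM, against 4.46 and 5.04 CPM. Ntrk2, a neurotrophin receptor, had a log2 ratio of 2.87 in control 3. Cldn6, a claudin of embryonic epithelium, had 4.41 CPM in control 3, against 16.1 and 13.1 CPM in controls 1 and 2, and Trim67 had 4.02 CPM, against 12.0 and 13.0 CPM.

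Further genes apart in control 3 were in none of the lists, 106 of those above and 155 of those below. Those described next were chosen after their values were seen. Several of those above encode secreted or metabolic proteins. C3, the central complement component, had 272 CPM in control 3, against 116 and 78.6 CPM in controls 1 and 2, and C6, a late complement component, had 82.4 CPM, against 29.5 and 30.1 CPM. Lcn2, a siderophore-binding protein of host defence, had 32.9 CPM in control 3, against 10.6 and 13.6 CPM in controls 1 and 2, and Chia1, a chitinase, had 71.2 CPM, against 23.6 and 26.8 CPM. Fmo1, a flavin-containing monooxygenase, had 157 CPM, against 64.9 and 61.5 CPM, Hpgd, which breaks down prostaglandins, had 49.4 CPM, against 18.0 and 22.8 CPM, and Lepr, the leptin receptor, had 65.8 CPM, against 32.7 and 32.8 CPM. Among those below, Ccne2, a cyclin of entry into S phase, had 8.49 CPM in control 3, against 22.1 and 21.8 CPM in controls 1 and 2, and Racgap1, a protein of the cleavage furrow, had 30.1 CPM, against 74.8 and 80.4 CPM. Cep55, which acts in the last step of division, had 12.5 CPM, against 32.5 and 31.3 CPM, and Brca1, a DNA repair gene, had 6.65 CPM, against 15.1 and 16.5 CPM.

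Lists of fluid transport, vessels, clock and immediate early genes were also uneven, and counts of genes highest in control 3 stand beside 36.6% of all kept genes. Of 16 kept fluid transport genes 12 were highest in control 3, at a median of 0.22, and Aqp1, the water channel of endothelium, had 725 CPM in control 3, against 449.8 and 504 CPM in controls 1 and 2. Ano1, a chloride channel of secreting epithelium, had 142 CPM, against 222 and 214 CPM. Of 18 clock genes 12 were highest in control 3, at a median of 0.22, and Nr1d1, a repressor of the clock, had 6.29 CPM, against 3.29 and 2.88 CPM. Of 19 kept immediate early genes 14 were highest there, at a median of 0.25, with Fos at 16.2 CPM in control 3, against 7.89 and 10.9 CPM in controls 1 and 2 and Egr3 the other way at 1.36 CPM, against 3.80 and 4.36 CPM. Of 17 VEGF and angiopoietin genes 10 were highest in control 3, at a median of 0.15, and Angpt1, a ligand of mural cells that steadies vessels, had 76.1 CPM, against 46.2 and 49.0 CPM. Members of the pericyte list differed in direction. Gucy1b1, a subunit of the nitric oxide receptor, had 259.9 CPM in control 3, against 202 and 186 CPM in controls 1 and 2, while Rgs5, a G protein regulator of pericytes, had 38.7 CPM, against 73.5 and 87.8 CPM. Among myofibroblast genes, Tgfbi, a TGF-beta-induced matrix protein, had 148 CPM, against 276 and 290.3 CPM, and Lgr6, a WNT-potentiating receptor, had 10.8 CPM, against 23.7 and 31.5 CPM.

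**Figure D4:**
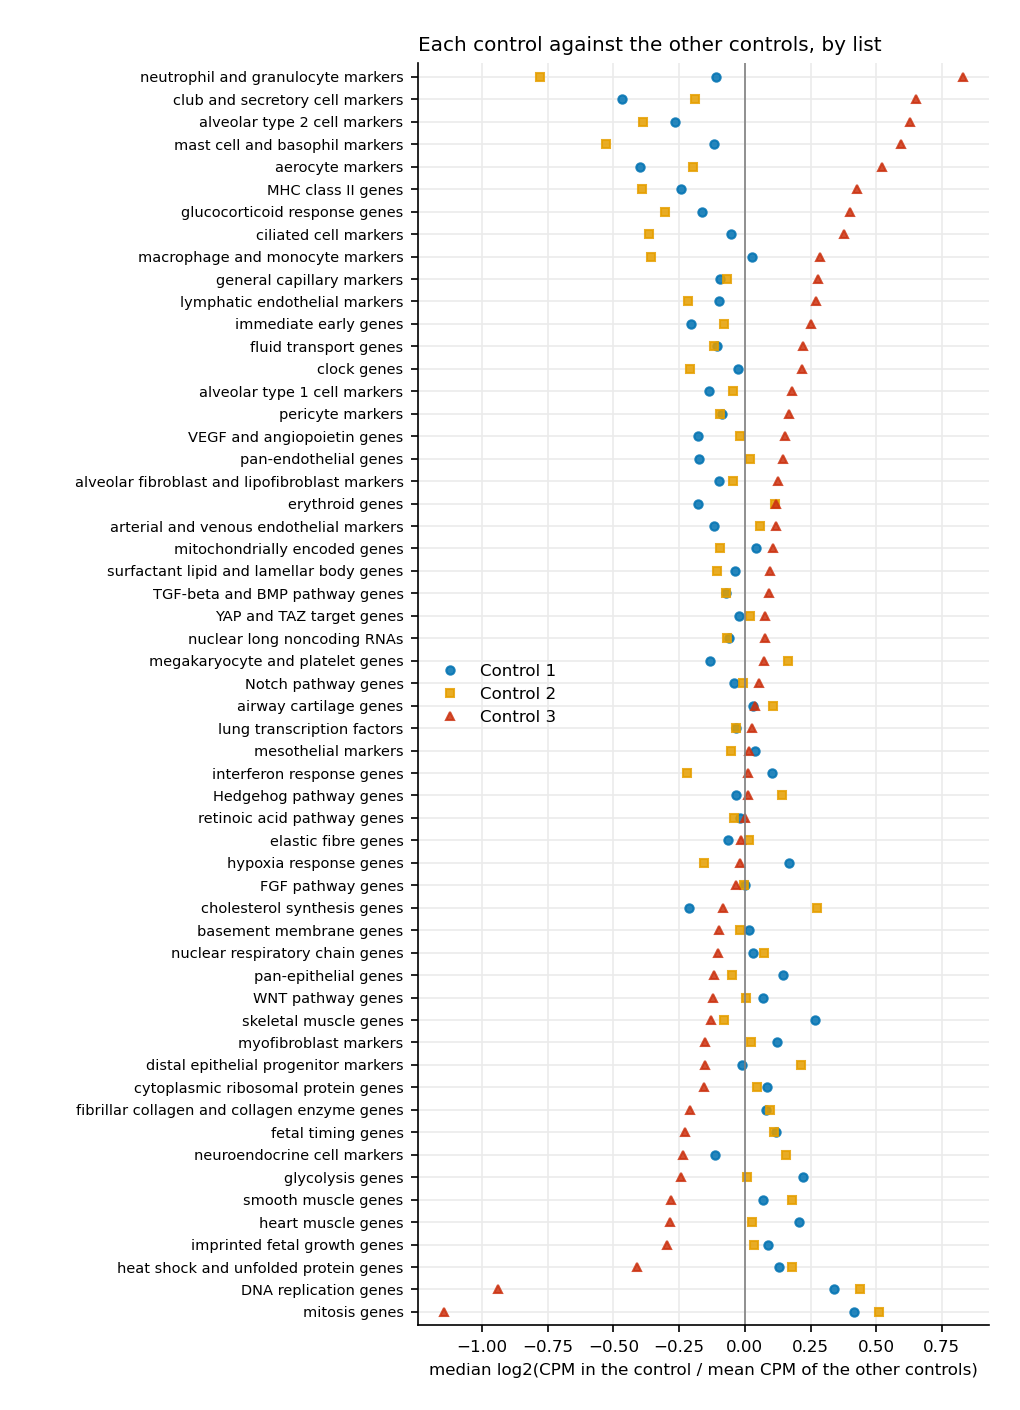
Median log2 ratio of CPM in each control to the mean CPM of the other controls, over the kept genes of each list with at least 5 of them, in order of control 3. Control 3 spans -1.14 for mitosis genes to 0.83 for neutrophil markers, and control 2 is lowest at -0.78 for neutrophil markers and highest at 0.51 for mitosis genes.

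Control 2 and control 1 had smaller deviations of their own. By Xist and Ddx3y control 2 was the only female. The part of sex in its deviations and its genes apart cannot be told apart from that of control 2 itself. Control 2 was the lowest control for 19 of 22 macrophage markers (31.6% of all kept genes were lowest in control 2), at a median of -0.36, and for 9 of 9 neutrophil markers. Mpeg1, a pore-forming protein of macrophages, had 35.1 CPM in control 2, against 53.5 and 83.8 CPM in controls 1 and 3. Cholesterol synthesis genes were highest in control 2 for 18 of 21 (34.3% of all kept genes), at a median of 0.27, and Hmgcs1, an early enzyme of the pathway, had 161 CPM there, against 128 and 139 CPM in controls 1 and 3. Glycolysis genes were highest in control 1 for 15 of 16 (29.1% of all kept genes), at a median of 0.22, with Gapdh at 645 CPM in control 1, against 511 and 418 CPM in controls 2 and 3. Pan-endothelial genes were lowest in control 1 for 15 of 18 (23.0% of all kept genes), at a median log2 ratio of -0.17.

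Several liver transcripts were highest in control 1. Alb, which encodes serum albumin, had 17.0 CPM in control 1, against 1.34 and 1.78 CPM in controls 2 and 3, which stood for 361, 28 and 55 reads in controls 1, 2 and 3. Genes of other secreted liver proteins, left out by the 1 CPM limit, were highest in control 1 too. Afp, fetal alpha-fetoprotein, had 5.31 CPM in control 1, against 0.288 and 0.162 CPM. Ahsg, a fetal serum glycoprotein, had 4.88 CPM in control 1, against 0.288 and 0.324 CPM. Apoa1 had 2.25 CPM, against 0.192 and 0.389 CPM, and Fgb 2.11 CPM, against 0.144 and 0.0648 CPM. Trf, which other organs than liver also make, had 704 CPM in control 3, against 279 and 237 CPM in controls 1 and 2, and was thus highest in control 3. What these transcripts add to the other values was not tested.

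Several of the widest ranges belonged to genes with a near-identical copy or close relative, whose reads the authors' counting may split. Tpm3-rs7, a related sequence of the tropomyosin gene Tpm3, had 3.95 CPM in control 3, against 172 and 98.6 CPM in controls 1 and 2, while Tpm3 had 342 CPM, against 175 and 283 CPM. The copy thus ranged 43.5-fold and the sum of both 1.10-fold. The pseudogene Rps24-ps3 ranged 35.5-fold, and its sum with Rps24, a ribosomal protein gene, 1.01-fold. Rps2-ps10 ranged 70.0-fold, with its reads nearly gone in control 2, and its sum with Rps2 ranged 1.33-fold. Rpl26, another ribosomal protein gene, was apart in control 2 at 291 CPM, against 59.8 and 58.1 CPM in controls 1 and 3, and its sum with Gm15772 ranged 1.29-fold. In the adult globins, Hbb-bt had 103 CPM in control 2, against 426 and 845 CPM, an 8.23-fold range. It was at most 14.5% of its sum with Hbb-b1, so that sum, which ranged 1.15-fold, says little of split reads. The alpha globins Hba-a1 and Hba-a2 ranged 1.75-fold and 1.85-fold, and their sum still 1.43-fold. The lysozymes differed from these: Lyz2 ranged 3.44-fold, Lyz1 2.26-fold and their sum 2.61-fold, with both highest in control 3.

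**Figure D5:**
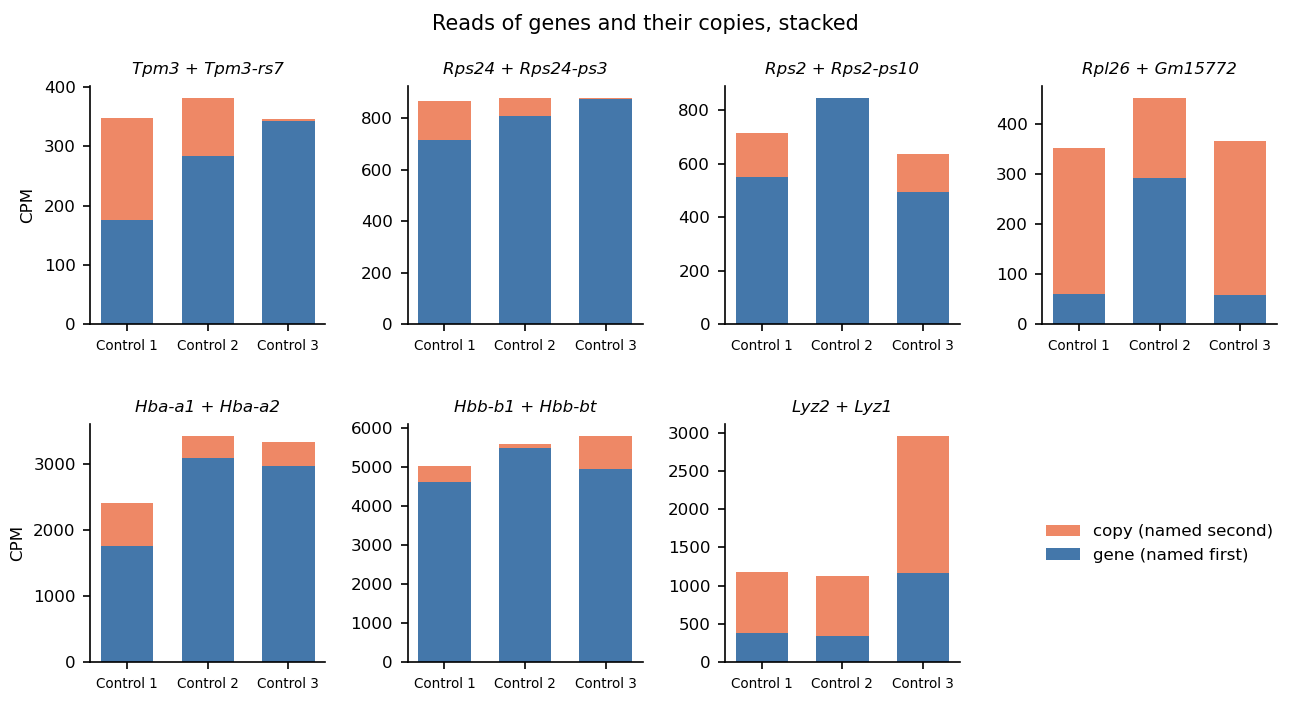
CPM of 7 genes (blue) and of a copy or relative (orange), stacked, in controls 1, 2 and 3, with axes from 0. The stacks of Tpm3 and Rps24 are nearly level, with sums that range 1.10-fold and 1.01-fold, while the gene is higher where the copy is lower, and the lysozyme stack is 2.61-fold higher in control 3 than in the lowest control.

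Hbb-bt, Trim6 and Trim34a, of which the Trim genes belong to the tripartite motif family, were 3 of the 23 genes at least 2-fold below both others in control 2, and all start and end between 103812524 and 104262234 on chromosome 7 (GRCm38). These bounds are the outer ends of the 3 genes, picked after their values were seen. Whether they lie closer together than other genes was not tested. Trim34a had 4.17 CPM in control 2, against 14.3 and 21.2 CPM in controls 1 and 3. Trim6 had 1.20 CPM in control 2, against 2.72 and 3.18 CPM. Hbb-y, between them, was at least 2-fold above both others in control 2, with 10.6 CPM, against 5.12 and 1.39 CPM in controls 1 and 3. Other genes apart in control 2 included Spink5, a protease inhibitor of epithelia, with 2.11 CPM, against 12.8 and 43.9 CPM, and the histocompatibility gene H2-T10 with 1.87 CPM, against 9.39 and 6.81 CPM. In control 1, Nxpe4 had 16.4 CPM, against 2.83 and 2.33 CPM in controls 2 and 3.

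The steadiest genes came from many functions. Cyba, a subunit of the phagocyte oxidase, had 50.9, 50.9 and 50.8 CPM in controls 1, 2 and 3, the smallest range among genes with a mean of at least 50 CPM. Map4, a microtubule-associated protein, had 196, 196 and 196 CPM, and the ribosomal protein gene Rps14 had 624, 626 and 626. Usp15, a deubiquitinase, Dars, an aminoacyl-tRNA synthetase, and Ptk7, a receptor of planar cell polarity, were also among the 10 steadiest. Their ranges were below the counting error of their reads, so they cannot be ordered among themselves.

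Igf2, a fetal growth factor, had only 258, 134 and 192 reads in controls 1, 2 and 3, or 12.1, 6.43 and 6.22 CPM, beside the high H19 of the same locus. The annotation places 2 other models over Igf2 (chromosome 7, 142650766 to 142666816): Gm49394, on the same strand, which had no read in any control, and the antisense Igf2os, with 3.94, 3.36 and 1.69 CPM. How reads in overlapping models were counted is not given in the sources used here, so the level of Igf2 is uncertain.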

How the data were processed

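Whole lungs of 6 mouse embryos were sequenced by the authors, and the 3 control libraries are described here. The deposited table holds raw counts, whole numbers of reads for each Ensembl gene, per the file headers. The submitters' processing notes name DESeq2 1.36.0, featureCounts 2.0.1 and STAR 2.7.10a, and as builds mm10 and GRCm38, without saying what each was used for. Which annotation, strand setting and read filters were used is not given in the sources used here, so reads of overlapping, antisense or near-identical genes may be split in an unknown way. The columns of the other group were left out. Of 55335 genes, 23377 had no symbol, 23239 took one from a reference table by gene ID, and 180 go by their ID.

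CPM was computed over each column's total, and genes were kept at 1 CPM in all 3 controls. Exon lengths and gene positions were read from GENCODE release 21 for mouse (GRCm38), and promoters from RefSeq on GRCm38.p6. The biological coefficient of variation is the square root of edgeR's common dispersion (edgeR 4.0.16, R 4.3.3) without covariates, checked on simulated data. A list's median log2 ratio is over its kept genes, of the CPM in 1 control over the mean of the others. There is 1 group, so no p-values were computed, and every value is a description. Counting errors cover the drawing of reads only.

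The genes, and 64 lists with 1136 entries of which 1128 were found, were chosen with earlier results of these data known. The rule for named genes takes the marker genes, the 25 highest per kilobase, the 20 with most reads and, for each control and direction, the 8 with the largest gap to both others at a mean of at least 5 CPM. It also takes the 10 steadiest at a mean of at least 50 CPM, the highest and the widest of each list, sex-linked genes, Gata4 and genes nearest the limit. Other genes are list members, or genes apart in a control, that were chosen after their values were seen. Alternatives were other scalings (TMM, and size factors of DESeq2 1.42.0), other filters and fold thresholds, protein-coding genes only, thinned counts, transcript lengths, and each control left out in turn.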

Additional observations from a re-analysis of the deposited data

How the results depend on the processing

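The lower mitosis and DNA replication genes and higher type 2 markers of control 3 kept their direction with each other scaling and filter, with thinned counts and without control 1 or 2. The median log2 ratio in control 3 was from -1.17 to -1.07 for mitosis genes, from -0.99 to -0.89 for DNA replication genes and from 0.58 to 0.66 for type 2 markers. TMM gave 320 genes apart in control 3 and DESeq2 size factors 316, where the total counts gave 325. The median ratio in control 3 kept 1 sign for 46 of 64 lists over all settings that hold control 3. The fold thresholds do not enter these medians, so those settings repeat the main value. The number of genes with a 2-fold range, 731, was 1231 with a limit of 10 reads in each control, 286 with a limit of 5 CPM, 2498 for a 1.5-fold and 107 for a 3-fold threshold. Genes apart in control 1, 13 in all, came to 35, 1, 128 and 5 under these settings and to 8 among protein-coding genes. Genes apart in control 2, 30 in all, came to 80, 2, 226 and 6. Genes apart in control 3 came to 169 at 5 CPM, 1116 at 1.5-fold and 33 at 3-fold. With a limit of 1 read in each control, chosen after seeing the data, 4855 genes had a 2-fold range, and 939, 1044 and 1554 were apart in controls 1, 2 and 3. Fewer or more genes enter under these limits by construction. The share of the 20 genes with most reads was 6.55% without mitochondrial and erythroid genes. With 1 control left out, genes with a 2-fold range numbered from 72 to 582, and the biological coefficient of variation was from 0.0716 to 0.184, against 0.150 over all 3. Counts of genes apart cannot be given with 1 control left out. The median log2 ratio of the liver genes in control 1 was 1.34 and turned to -0.75 at 5 CPM, where only Trf was left. No paired analysis was possible because only 1 group is described. Depth limits genes near 1 CPM, where counting error alone is 18.0% to 21.9%.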
